A study of Rattus norvegicus with 30 samples.

Results

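In rat ileum after bariatric surgery, 6 genes of cytotoxic lymphocytes were followed: Prf1, Gzma, Cd247, Cd3g, Klrd1 and Cd7. They were taken by symbol, each as its brightest transcript cluster (the set of probes the array assigns to 1 transcript locus) that carried that symbol alone. All 6 had 1 such cluster, out of 14557 gene symbols on the array, and all 6 were among the 10918 genes bright enough to be tested. Their NCBI gene IDs are 50669 (Prf1), 266708 (Gzma), 25300 (Cd247), 300678 (Cd3g), 25110 (Klrd1) and 303747 (Cd7). The values are log2 signals, in which a difference of 1 is a doubling of signal. Each of the 30 arrays measured the ileum of 1 male, wild-type Long-Evans rat of 8 to 10 weeks. Of the 5 groups, of 6 rats each, 2 had bariatric surgery: vertical sleeve gastrectomy is called VSG here, and Roux-en-Y gastric bypass RYGB. Sham_VSG and Sham_RYGB are their sham-operated controls, and Sham_VSG_PF is the sham of VSG under paired feeding. Every rat was kept under specific-pathogen-free conditions, received a liquid diet (Osmolite) from the day before surgery and had a midline incision under isoflurane. In VSG most of the stomach was cut away along its outer curve, leaving a sleeve. Its sham consisted of pressing the stomach along the same line with blunt forceps. The labels describe neither the bypass operation nor its own sham, nor the time from surgery to sampling.

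Lymphocytes that lie between the epithelial cells of the gut are largely CD8 T cells that store perforin and granzymes in granules, with some T cells of the gamma-delta lineage and some innate cells. Perforin (Prf1) opens pores in a target cell, and granzyme A (Gzma) is a serine protease that enters through them. CD3 gamma (Cd3g) and CD3 zeta (Cd247) are subunits of the T cell receptor complex, and CD3 zeta also transmits signals from receptors of natural killer (NK) cells. Klrd1 encodes CD94, which pairs with NKG2 proteins into lectin-like receptors of NK and some CD8 T cells. Cd7 encodes a surface protein of the immunoglobulin family found on T and NK cells. The ileal wall also carries Peyer's patches, which are follicles of B cells with helper T cells between them.

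The promoters of Prf1, Gzma and Cd247 are shown because these were the members with the widest range over the 30 arrays. Gzma and Cd247 also differed in how they went with B cell genes. RefSeq's promoter table (build GRCr8) held a promoter of 300 bases around the gene's start for 4 of the 6 members. It held none for Klrd1 and Cd7. Capitals mark matches, on either strand, to 3 short motifs: TGTGGT of RUNX factors, GGAAG of Ets factors and AGGTGT of T-box factors. The sequences lie at chr20:29788790-29789089 (plus strand), chr2:46485647-46485946 (minus strand) and chr13:80576019-80576318 (plus strand), and each is read along its gene.
Prf1: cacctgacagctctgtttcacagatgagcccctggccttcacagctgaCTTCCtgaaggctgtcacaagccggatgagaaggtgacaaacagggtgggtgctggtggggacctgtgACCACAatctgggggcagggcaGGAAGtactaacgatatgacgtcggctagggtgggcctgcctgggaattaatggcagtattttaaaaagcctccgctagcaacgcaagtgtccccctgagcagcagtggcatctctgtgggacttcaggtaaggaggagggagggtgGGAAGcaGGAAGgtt
Gzma: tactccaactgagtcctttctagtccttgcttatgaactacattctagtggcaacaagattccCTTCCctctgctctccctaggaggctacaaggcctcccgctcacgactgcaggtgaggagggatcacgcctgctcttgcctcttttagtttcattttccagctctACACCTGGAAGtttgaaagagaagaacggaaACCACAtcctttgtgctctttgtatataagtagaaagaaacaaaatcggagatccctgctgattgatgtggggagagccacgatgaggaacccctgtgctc
Cd247: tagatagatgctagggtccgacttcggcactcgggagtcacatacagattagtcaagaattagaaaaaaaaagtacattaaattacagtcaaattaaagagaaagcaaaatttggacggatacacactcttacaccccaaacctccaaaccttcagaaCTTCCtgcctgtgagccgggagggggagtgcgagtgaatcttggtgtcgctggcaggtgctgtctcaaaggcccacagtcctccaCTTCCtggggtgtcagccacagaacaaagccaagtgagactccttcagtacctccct
The Prf1 promoter held 1 RUNX match and 4 Ets matches. That of Gzma held 1 RUNX, 2 Ets and 1 T-box match, the T-box match lying directly beside an Ets match without overlap. The Cd247 promoter held 2 Ets matches and neither of the other motifs. Cd3g, not printed, had 1 Ets and 1 T-box match in the window at chr8:54183869-54184168 (minus strand). Among the 27457 promoters of the table, 16.9% held the RUNX motif, 70.1% the Ets motif and 13.4% the T-box motif. These are matches of letters only.

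The tissue label held for the defining genes of ileal epithelium. Fabp6, which binds bile acids inside ileal cells, lay between 11.84 and 12.21 on all 30 arrays. Slc10a2, the ileal bile acid transporter, lay between 9.77 and 10.84. T cells were visible through Cd3e, which encodes another CD3 subunit and lay between 5.32 and 8.41, and through the CD8 alpha chain gene Cd8a, between 5.09 and 8.59. Ncr1, a defining receptor of NK cells, lay between 1.19 and 2.02, under the level of 2.325 at which genes were tested, so these arrays did not show NK cells by that marker. In a piece of tissue, fewer cells of a type and less RNA per cell cannot be told apart.

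The arrays also fell into 2 sets by their B cell genes, across all 5 groups. The mean of 12 B cell genes lay between 3.51 and 4.15 on 19 arrays and between 6.37 and 7.87 on the other 11. Its marker Ms4a1, which encodes CD20, ran from 1.79 to 9.33. The 11 arrays were 3 of Sham_VSG, 2 of Sham_VSG_PF, 2 of VSG, 3 of Sham_RYGB and 1 of RYGB. The mean of 8 fat cell genes was high on 4 arrays, of which 3 were RYGB and 1 was VSG, and on no sham array. Both sets of arrays are named below beside the results they touch.

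Prf1 was of medium brightness, with a mean of 4.23 over the 30 arrays. In Sham_VSG the lowest, median and highest values were 4.23, 4.77 and 5.61, and in Sham_VSG_PF they were 3.57, 4.38 and 5.53. In VSG they were 2.36, 4.29 and 5.25, in Sham_RYGB 3.17, 4.37 and 5.03, and in RYGB 2.77, 3.56 and 4.43. The 3 sham groups had higher medians than VSG and RYGB, and the ranges of all 5 groups overlapped.

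Gzma had a mean of 6.72. Its values in Sham_VSG had a lowest, median and highest of 5.54, 7.10 and 7.86, and those in Sham_VSG_PF of 6.37, 7.38 and 7.99. The corresponding values were 5.66, 6.25 and 7.31 in VSG, 5.97, 6.13 and 7.21 in Sham_RYGB, and 5.50, 6.58 and 7.96 in RYGB. RYGB spread the most, with 3 arrays under 6 and 3 above 7, and it covered the whole range of VSG.

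Cd247 had a mean of 4.89. The lowest, median and highest values were 4.34, 5.35 and 6.10 in Sham_VSG and 4.25, 4.68 and 6.11 in Sham_VSG_PF. They were 3.71, 4.58 and 5.78 in VSG, 4.21, 4.93 and 5.97 in Sham_RYGB, and 3.56, 4.09 and 5.86 in RYGB. In each group the highest array or arrays were among the 11 high in B cell genes.

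Cd3g was bright and even, with all 30 arrays between 8.45 and 9.38. Its lowest, median and highest values were 8.46, 8.90 and 9.10 in Sham_VSG, 8.86, 9.02 and 9.38 in Sham_VSG_PF, and 8.45, 8.62 and 9.22 in VSG. Sham_RYGB had 8.66, 8.82 and 9.12, and RYGB 8.53, 8.70 and 8.96. In VSG the 4 arrays low in B cell genes lay between 8.45 and 8.63, and the other 2 stood above 9.

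Klrd1 lay close to the level of 2.325 used for the test, with a mean of 2.47, and only 3.4% of the tested genes were dimmer. Its lowest, median and highest values were 2.17, 2.69 and 3.57 in Sham_VSG, 2.08, 2.36 and 3.33 in Sham_VSG_PF, and 2.14, 2.31 and 3.26 in VSG. In Sham_RYGB they were 2.12, 2.33 and 2.68, and in RYGB 1.87, 2.36 and 2.81. The files give no detection calls, so whether Klrd1 was detected is not known. A true difference in a gene this dim may be understated, which was not tested.

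Cd7 was bright, with a mean of 8.92. Its lowest, median and highest values were 8.63, 9.11 and 9.92 in Sham_VSG, 8.81, 9.07 and 9.64 in Sham_VSG_PF, and 8.60, 8.86 and 9.36 in VSG. Sham_RYGB had 8.35, 8.73 and 9.31, and RYGB 7.68, 8.48 and 9.55. The 3 lowest of all 30 arrays were RYGB arrays, while another 2 of that group were above 9.4.

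**Figure D1:**
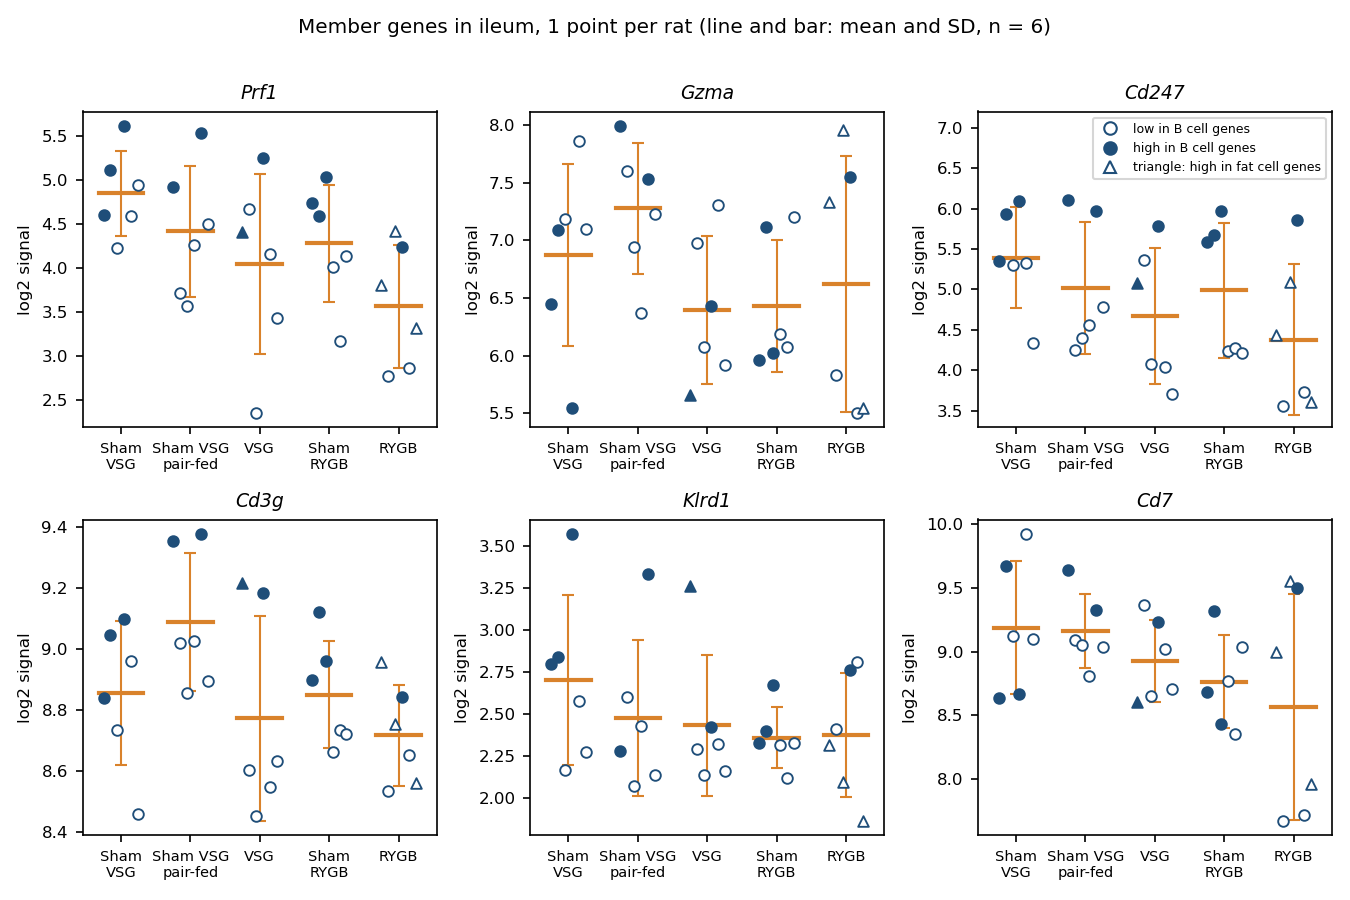
Log2 signal (vertical axis) of each member in the 5 groups, with 1 point per rat. The orange line and bar are the mean and SD of 6 rats, filled points are the 11 arrays high in B cell genes and triangles the 4 high in fat cell genes. Every group's range overlaps every other group's for all 6 genes. The highest point is filled in every group for Cd247, in every group but RYGB for Cd3g, and only in Sham_VSG_PF for Gzma.

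Ordered by group mean, Sham_VSG stood first for Prf1, Cd247, Klrd1 and Cd7, and Sham_VSG_PF stood first for Gzma and Cd3g. RYGB was last for Prf1, Cd247, Cd3g and Cd7, VSG was last for Gzma, and Sham_RYGB was last for Klrd1. Neighbours in these orders differed by less than their pooled SD, except Sham_VSG_PF and Sham_VSG for Cd3g, whose difference of 0.23 was about equal to it. The distance from the highest to the lowest group mean was largest for Prf1 (1.28) and smallest for Klrd1 (0.34), and it was 1.01 for Cd247, 0.89 for Gzma, 0.62 for Cd7 and 0.37 for Cd3g.

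VSG was set against Sham_VSG, the sham without paired feeding. In this comparison the operation and any difference in food intake cannot be told apart. All 6 members had a lower mean after VSG, and 0 of 6 passed the test (limma with Benjamini-Hochberg adjustment over 10918 genes, threshold 0.05), where 0% of all genes passed. Among all genes 56.5% had a lower mean. The median log2 difference of the members was -0.37, beside -0.03 over all genes tested. At an unadjusted p under 0.05, 0 of 6 members and 6.05% of all genes passed. For every member the ranges of the groups overlapped, as they did for all but 0.275% of genes.

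Prf1 had the largest difference, at 4.05 ± 1.02 (SD, n = 6) after VSG against 4.85 ± 0.49, or 1.74-fold lower. The log2 difference was -0.80, with a 95% confidence interval from -1.63 to 0.03 (limma adjusted p = 0.819). Of the 6 VSG arrays, 5 lay below the mean of Sham_VSG. The difference leaned on 1 rat: it was -0.46 without VSG replicate 3, whose value of 2.36 was the lowest of all, and -1.04 without VSG replicate 4. Gzma, the other granule protein, was 6.39 ± 0.64 against 6.87 ± 0.79, a log2 difference of -0.48 (interval -1.33 to 0.38). It was -0.28 without Sham_VSG replicate 5 and -0.74 without Sham_VSG replicate 4.

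In the receptor complex, Cd247 was 4.67 ± 0.84 after VSG against 5.39 ± 0.62, with a log2 difference of -0.72 (interval -1.63 to 0.19). Cd3g, its partner subunit, was 8.77 ± 0.34 against 8.86 ± 0.24, a log2 difference of -0.08 (interval -0.36 to 0.19), which ran from -0.17 without VSG replicate 1 to -0.02 without VSG replicate 3. The interval thus reached much farther down for Cd247 than for Cd3g. Klrd1 was 2.44 ± 0.42 against 2.70 ± 0.50, with a log2 difference of -0.27 (interval -0.73 to 0.19). That value was -0.43 without VSG replicate 1 and -0.10 without Sham_VSG replicate 4. Cd7 was 8.93 ± 0.32 against 9.19 ± 0.52, with a log2 difference of -0.26 (interval -0.85 to 0.33), and -0.11 without Sham_VSG replicate 5.

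B cell genes were also lower in VSG, in 12 of 12, with a median log2 difference of -0.79 and 0 of 12 past the test. The mean of that list ran from 3.51 to 7.79 in VSG and from 3.85 to 7.82 in Sham_VSG, with 2 and 3 arrays in the upper range. Fat cell genes were higher in 8 of 8, with a median of 0.41, and the list mean ran from 3.60 to 6.73 in VSG and from 3.58 to 3.91 in Sham_VSG. Within the arrays low in B cell genes (4 VSG, 3 Sham_VSG), all 6 members again had lower means after VSG and the median log2 difference was -0.57. There Prf1 was 3.66 ± 1.00 (SD, n = 4) against 4.59 ± 0.36 (n = 3), Gzma 6.57 ± 0.68 against 7.38 ± 0.42, and Cd247 4.30 ± 0.73 against 4.99 ± 0.57. None passed the limma test there either, with adjusted p from 0.648. With the B cell mean as a covariate 5 of 6 members were lower, the median was -0.31, and Cd3g turned to 0.00.

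Compared with the sham under paired feeding, VSG again gave a lower mean for all 6 members, and 0 of 6 passed the limma test, where 0% of all genes passed. At an unadjusted p under 0.05, 2 of 6 members (Gzma and Cd3g) and 5.94% of all genes passed. Every member's groups overlapped, as in all but 0.266% of genes. The VSG rats are the same in both comparisons, so they are not independent. The members' median log2 difference was -0.33, beside -0.02 over all genes, of which 54.7% were lower. It lay between -0.17 and -0.22 when VSG replicate 3 or 6, or Sham_VSG_PF replicate 1 or 5, was left out, and at -0.48 without VSG replicate 4.

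Gzma was 6.39 ± 0.64 after VSG against 7.28 ± 0.57 (SD, n = 6) in pair-fed shams, or 1.85-fold lower. The log2 difference was -0.89 (interval -1.74 to -0.03; limma adjusted p = 0.823), with 5 of 6 VSG arrays below the pair-fed mean. Fat cell genes were higher after VSG in 8 of 8 (median 0.43), with list means of 3.60 to 6.73 against 3.61 to 4.08, and without the 1 VSG array high in them the value for Gzma was -0.74 (interval -1.56 to 0.08). B cell genes were lower in 12 of 12 (median -0.16), with list means of 3.51 to 7.79 against 3.75 to 7.56. Cd3g was 8.77 ± 0.34 against 9.09 ± 0.23, a log2 difference of -0.32 (interval -0.59 to -0.04; limma adjusted p = 0.780), with 4 of 6 VSG arrays below, and it was -0.40 without that array. The other 4 had log2 differences from -0.04 for Klrd1 to -0.37 for Prf1, the latter -0.03 without VSG replicate 3.

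Among the arrays low in B cell genes, the values of Cd3g were 8.45 to 8.63 on the 4 VSG arrays and 8.86 to 9.03 on the 4 pair-fed arrays. These did not overlap, as was the case for 5.13% of all tested genes, and with VSG the lower group for 3.07%. The log2 difference was -0.39 there (limma adjusted p = 0.495). Gzma had a log2 difference of -0.47 on the same arrays, and the other 4 members were between -0.06 and -0.36.

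Pair-feeding by itself was read from Sham_VSG_PF against Sham_VSG, which shares both sham groups with the comparisons above. Here 2 members had higher means, Gzma by a log2 difference of 0.41 (interval -0.45 to 1.26) and Cd3g by 0.23 (interval -0.05 to 0.51). The other 4 were lower, from -0.03 for Cd7 to -0.43 for Prf1, and 53.2% of all genes were lower. None of 6 passed the limma test, where 0% of genes passed, and none had an unadjusted p under 0.05, against 5.33% of genes. The groups overlapped for every member, as in all but 0.302% of genes. Gzma's direction depended on the arrays: among those low in B cell genes it was 7.04 ± 0.52 (n = 4) in pair-fed against 7.38 ± 0.42 (n = 3) in Sham_VSG, a log2 difference of -0.34.

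**Figure D2:**
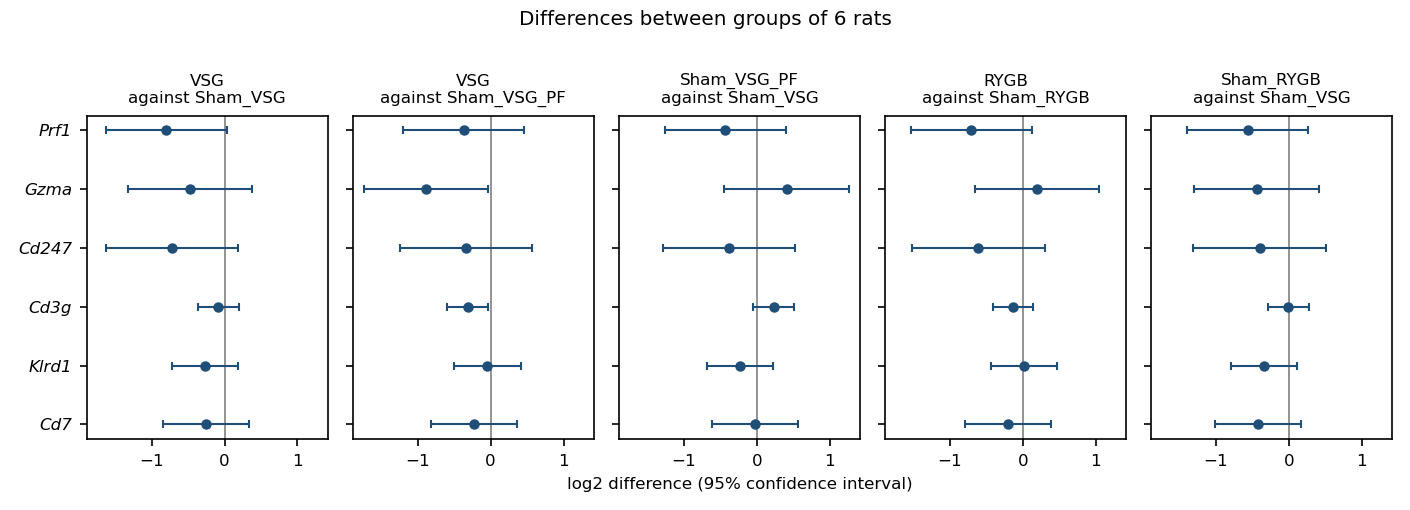
Log2 difference (horizontal axis) of each member in 5 comparisons between groups of 6 rats, with bars for the 95% confidence interval. The intervals clear 0 only for Gzma and Cd3g in VSG against Sham_VSG_PF, and no member passed the test after adjustment over 10918 genes.

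Gastric bypass was set against its own sham. In RYGB, 4 members had lower means (Prf1, Cd247, Cd3g and Cd7) and 2 had higher means (Gzma and Klrd1). None of 6 passed the limma test, where 20 genes, or 0.183%, did, and none had an unadjusted p under 0.05, against 13% of genes. The groups overlapped for every member, as in all but 0.705%. The members' median log2 difference was -0.17, beside -0.01 over all genes, of which 51.9% were lower.

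Prf1 was 3.57 ± 0.70 (SD, n = 6) in RYGB against 4.28 ± 0.66, a log2 difference of -0.71 (interval -1.54 to 0.12; limma adjusted p = 0.456), with 5 of 6 RYGB arrays below the sham mean. Cd247 was 4.38 ± 0.94 against 4.99 ± 0.83, a log2 difference of -0.61 (interval -1.52 to 0.30). Gzma was 6.62 ± 1.11 against 6.43 ± 0.57, a log2 difference of 0.19 (interval -0.66 to 1.05), and it was -0.08 without RYGB replicate 3. Cd3g, Klrd1 and Cd7 had log2 differences of -0.13, 0.02 and -0.20.

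B cell genes were lower in 12 of 12 in this comparison (median -1.38, with 1 RYGB and 3 sham arrays in the upper range), and fat cell genes were higher in 8 of 8 (median 1.04, with 3 RYGB arrays and no sham array high). Only 2 RYGB arrays were low in both. On the arrays low in both (2 RYGB, 3 Sham_RYGB), a choice made after seeing the data, 5 of 6 members were lower, with a median log2 difference of -0.71. This median was nearer to 0 than the -0.17 of all arrays in 2 other fits: -0.05 with the B cell mean as a covariate (3 lower, 3 higher) and -0.10 on the arrays low in B cell genes (5 of 6 lower). It was -0.32 when the 3 RYGB arrays with high fat cell genes were left out (5 of 6 lower). On the arrays low in both, Gzma was at -0.82 and Cd7 at -1.02 (limma adjusted p = 0.209 for Cd7). No member passed the limma test in any of these fits.

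The difference between both surgeries' effects, each against its own sham, was tested as an interaction. None of 6 members passed the limma test, where 0% of genes passed, and none had an unadjusted p under 0.05, against 5.72% of genes. Gzma had the largest interaction, at 0.67 (interval -0.54 to 1.88; limma adjusted p = 0.944), and the others lay between -0.05 for Cd3g and 0.29 for Klrd1. The shams also differed in mean: in Sham_RYGB against Sham_VSG all 6 members were lower, with a median log2 difference of -0.41 beside -0.02 over all genes. Of all genes 55.5% were lower in that comparison. None of 6 passed the limma test there, where 0% of genes passed, and none had an unadjusted p under 0.05, against 4.71% of genes. Every member's sham groups overlapped, as in all but 0.266% of genes. Prf1 and Cd247 were closer between the shams (-0.57 and -0.40) than between VSG and Sham_VSG, and Klrd1 and Cd7 were farther apart (-0.34 and -0.42). The difference between these distances was not tested.

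The members differed in how they went with the B cell genes over the 30 arrays. Cd247 had a median of 4.27 on the 19 arrays of the lower B cell set, against 5.86 on the 11 of the upper set, and 9 of the 11 stood above all 19. Cd3g had medians of 8.72 and 9.10, with 7 of 11 above all 19. Prf1 had 4.01 and 4.92, with 5 of 11 above, and Klrd1 2.30 and 2.76, with 4 of 11. Cd7 had 9.02 and 9.23, with 0 of 11 above, and Gzma was the reverse, with 6.98 on the low and 6.44 on the high arrays. Gzma spanned nearly the same range in both sets, from 5.50 to 7.96 on the low and from 5.54 to 7.99 on the high arrays. These are descriptions with no test.

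**Figure D3:**
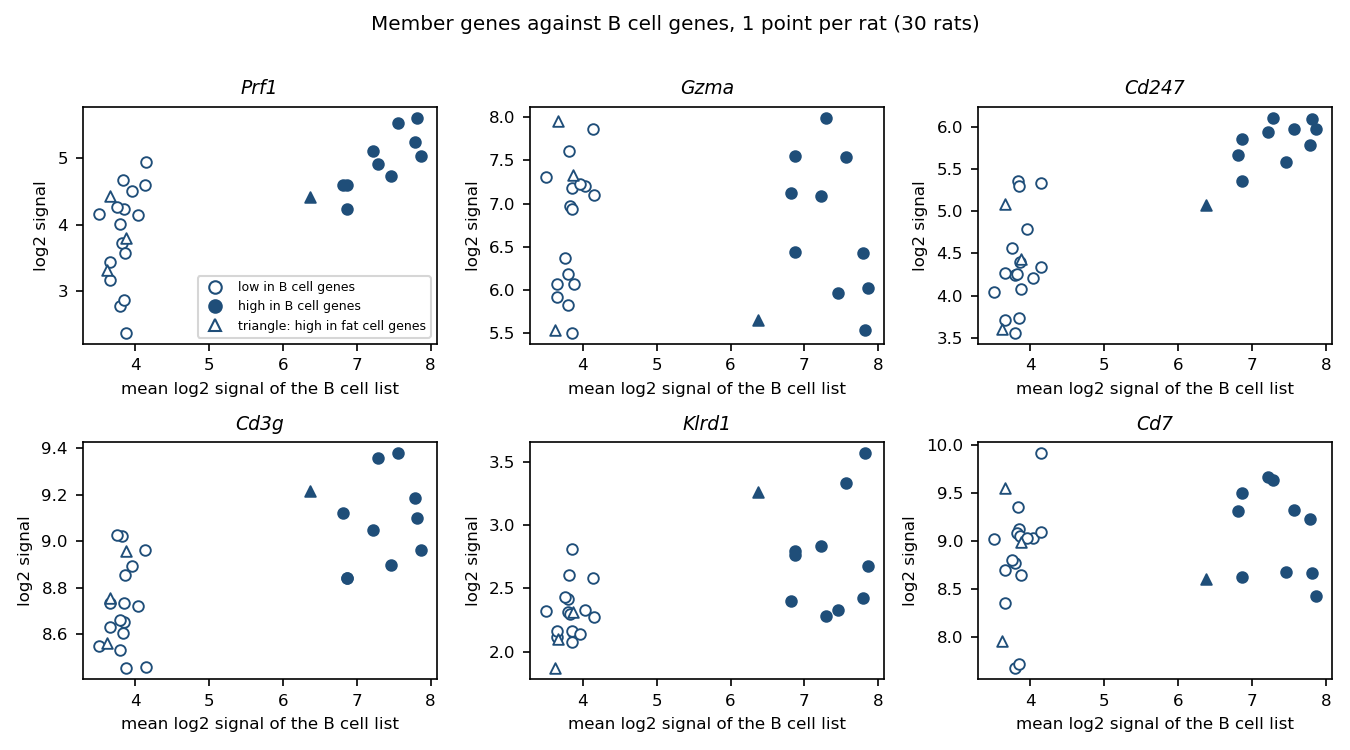
Log2 signal of each member (vertical axis) against the mean log2 signal of the B cell list (horizontal axis), with 1 point per rat. The arrays form separate sets at 3.51 to 4.15 and at 6.37 to 7.87. For Cd247, 9 of the 11 upper arrays stand above all 19 lower ones, and Gzma spans nearly the same range in both sets.

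Because the arrays form 2 sets, relations between members were taken within each, over arrays that span the 5 groups. Group means were not taken out, so differences between groups enter these correlations as well as differences between rats. For the 15 pairs in 2 sets, 30 relations were computed, with permutation tests of 100000 resamples and Benjamini-Hochberg adjustment over the 30. On the 19 low arrays Prf1, Gzma, Cd247 and Cd7 went together, and all 6 pairs among them had an r between 0.706 and 0.887 (adjusted permutation p of 0.0043 or less). On the 11 high arrays Gzma and Cd7 still went together, but Prf1 had an r of -0.10 with Gzma and 0.03 with Cd7 (adjusted permutation p = 0.93 and 0.976). These 2 values leaned on few arrays: without the 2 farthest from the median of Prf1, r was 0.457 and 0.455. The difference between the sets was not tested. For Gzma and Cd7, Pearson's r was 0.887 and Spearman's rho 0.821 on the 19 low arrays. Their two-sided permutation p was 1e-05, the smallest these resamples can give, and 9e-05 (adjusted 0.0003 and 0.0009). On the 11 high arrays r was 0.876 and rho 0.764 (permutation p = 0.00146 and 0.00905; adjusted 0.00626 and 0.0388). Without the 2 arrays farthest from the median of Gzma, r was 0.835 and 0.821.

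Prf1 and Gzma had an r of 0.717 on the low arrays, Prf1 and Cd7 of 0.764, and Cd247 and Cd7 of 0.813, with rho at 0.661, 0.818 and 0.805. Prf1 and Cd247 had an r of 0.706 and a rho of 0.758 on the 19 low arrays (permutation p = 0.00086 and 0.0003; adjusted 0.0043 and 0.00225), and r was 0.702 without the 2 farthest arrays. On the 11 high arrays r was 0.628 and rho 0.624 (permutation p = 0.0378 and 0.044; adjusted 0.141 and 0.132). Gzma and Cd247 had an r of 0.717 and a rho of 0.640 on the low arrays (permutation p = 0.00064 and 0.0038; adjusted 0.00384 and 0.019), with r at 0.635 without the 2 farthest. On the high arrays r was 0.429 and rho 0.314 (permutation p = 0.191 and 0.345; adjusted 0.410 and 0.576). Klrd1 went with none of the other members on the low arrays, where its r with them lay between -0.03 and 0.28 (adjusted permutation p from 0.431).

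**Figure D4:**
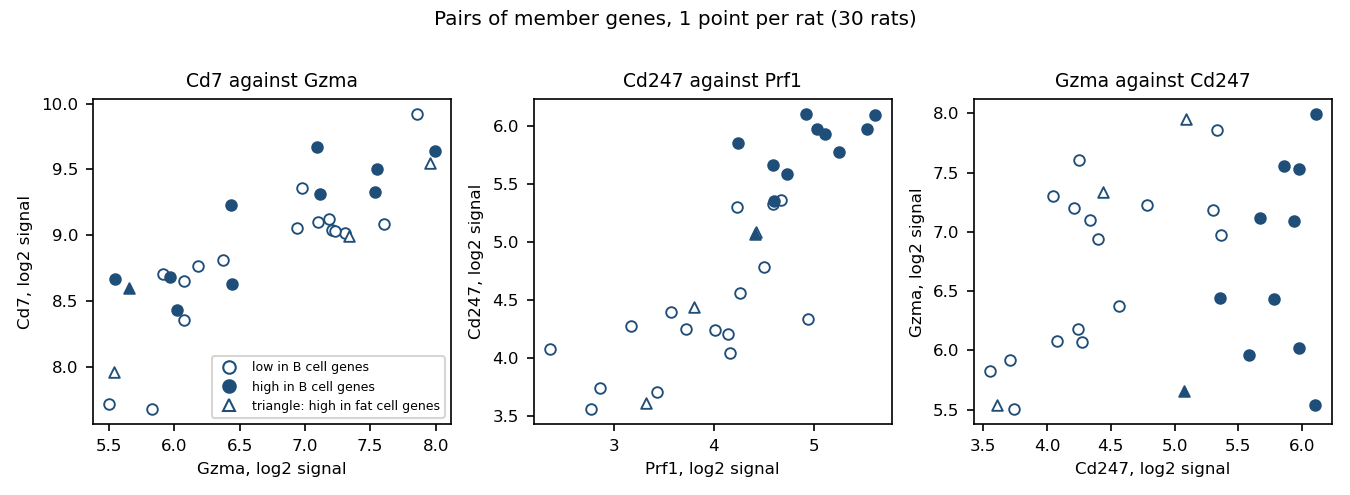
Log2 signals of pairs of members, with 1 point per rat (30 rats). Cd7 rises with Gzma within each set of arrays (r = 0.887 over 19 arrays and 0.876 over 11), while the 11 arrays high in B cell genes have Cd247 above 5 at every level of Gzma.

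The genes whose pattern was most like the mean of the 6 members, over the 30 arrays with group means taken out, were Cd8b (Pearson's r of 0.934), Cd3e (0.931), Cd3d (0.927), Lck (0.926), Cd8a (0.917), Lat (0.914), Ccr9 (0.909), Hcst (0.904), Ptpn22 (0.900) and Ifgga2l1 (0.898). Cd8a and Cd8b encode the chains of CD8, Cd3d and Cd3e further CD3 subunits, Lck the kinase that starts T cell receptor signalling, and Ccr9 the receptor that guides T cells to the small intestine. Over the 19 arrays low in B cell genes they were Ptprc (0.952), Cd3d (0.951), Ccl5 (0.942), Ptprcap (0.942), Cd3e (0.934), Akna (0.927), Cd8a (0.923), Cd8b (0.922), Gimap7 (0.918) and Ccnf (0.917). The lists share 4 genes, Cd3d, Cd3e, Cd8a and Cd8b. These correlations are descriptions, and the arrays share tissue composition.

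Other genes of these lymphocytes were read from 6 lists. In VSG against Sham_VSG, 0 genes of any list passed the limma test. Genes of the T cell receptor complex and its signalling were lower in 20 of 21, with a median log2 difference of -0.53. Trat1, a transmembrane adaptor of the receptor, was 4.62 ± 0.82 (SD, n = 6) against 5.34 ± 0.53. Lcp2, the adaptor SLP-76, was 6.25 ± 0.63 against 6.84 ± 0.65, and Ubash3a, a negative regulator of receptor signalling, was 3.23 ± 0.58 against 3.77 ± 0.60.

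Cytotoxic effector genes were lower in 13 of 14, with a median of -0.33. Serpinb9, an inhibitor of granzyme B, was 5.72 ± 0.62 against 6.41 ± 0.61, and the chemokine gene Ccl4 was 5.27 ± 1.31 against 6.18 ± 1.01. The exception was Xcl1, a chemokine gene of T and NK cells that attracts dendritic cells, at 6.09 ± 0.25 against 5.57 ± 0.23 (log2 difference 0.52; limma adjusted p = 0.819). In pair-fed shams it was higher again, at 6.55 ± 0.61, a log2 difference of 0.98 from Sham_VSG (limma adjusted p = 0.553).

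Killer cell receptor and NK cell genes were lower in 5 of 9, with a median of -0.19. Among them Klrk1, the activating receptor NKG2D, was 4.94 ± 0.62 against 5.37 ± 0.51, and Cd160, a receptor of intraepithelial lymphocytes, was 4.18 ± 0.30 against 4.59 ± 0.46. The signalling adaptor gene Tyrobp, which myeloid cells also express, was 7.45 ± 0.61 against 7.79 ± 0.43. Genes of homing, residence and IL-15 were lower in 11 of 15, with a median of -0.21. Cd69, a retention receptor, was 4.80 ± 0.49 against 5.47 ± 0.54, Crtam, an adhesion receptor of cytotoxic cells, was 3.41 ± 0.34 against 3.80 ± 0.35, and S1pr5, an exit receptor, was 2.50 ± 0.32 against 2.83 ± 0.31.

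Of the 6 lists, transcription factor genes lay closest to 0, lower in 6 of 8 with a median of -0.08. Ahr, the receptor for dietary ligands on which intraepithelial lymphocytes depend in mice, was 6.76 ± 0.15 against 6.87 ± 0.13. Nfil3 was 5.20 ± 0.35 against 5.50 ± 0.48, and Ikzf3, of lymphocytes in general, was 5.84 ± 1.12 against 6.41 ± 0.98. Helper, regulatory and naive T cell genes, which are not cytotoxic, were lower in 14 of 14, with a median of -0.48. The co-receptor gene Cd4 was 6.30 ± 0.65 against 6.76 ± 0.50, Ctla4, an inhibitory receptor, 2.90 ± 0.58 against 3.62 ± 0.60, and Il2ra, the IL-2 receptor alpha chain, 4.51 ± 0.38 against 5.02 ± 0.39.

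**Figure D5:**
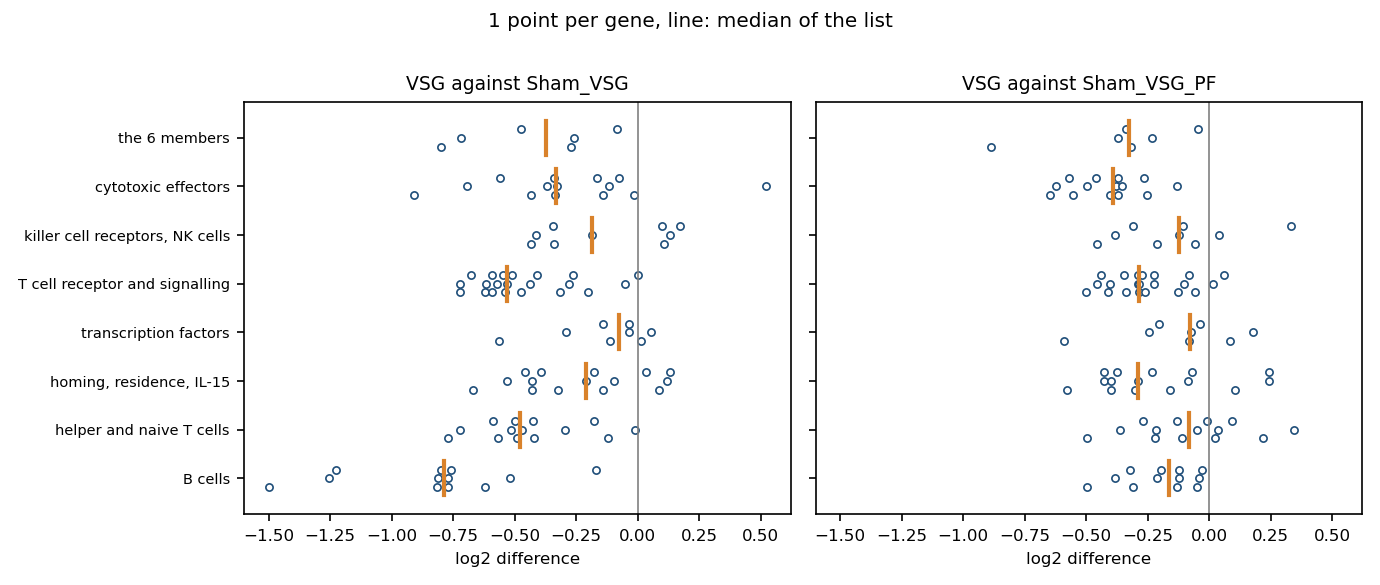
Log2 difference (horizontal axis) of the genes of each list in VSG against Sham_VSG (left) and against Sham_VSG_PF (right), with 1 point per gene and an orange line at the list's median. B cell genes lie farthest to the left against Sham_VSG (median -0.79), and cytotoxic effectors do so against Sham_VSG_PF among the lists (median -0.39).

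In VSG against Sham_VSG, the lymphocyte lists' median differences shrank with the B cell list mean as a covariate. Cytotoxic effectors were then lower in 13 of 14, with a median of -0.15 in place of -0.33, and T cell receptor genes in 18 of 21, with -0.21 in place of -0.53. Helper T cell genes were lower in 6 of 14, with 0.02 in place of -0.48. The helper list mean itself split with the B cell sets, at 4.22 to 4.67 on low and 5.58 to 6.52 on high arrays. Cxcr5 was also written into both lists. Fits with this covariate, here and below, therefore cannot separate helper T cell genes from B cell genes. Differences between the lists were not tested. On the arrays low in B cell genes the counts were 13 of 14 (median -0.48), 21 of 21 (median -0.38) and 12 of 14 (median -0.16). Against the pair-fed sham, cytotoxic effectors were lower in 14 of 14 (median -0.39), T cell receptor genes in 19 of 21 (median -0.28) and helper T cell genes in 9 of 14 (median -0.08). There the effectors' median did not shrink with the covariate: the counts were 14 of 14 (median -0.40), 18 of 21 (median -0.22) and 6 of 14 (median 0.06). On the arrays low in B cell genes they were 12 of 14 (median -0.227), 16 of 21 (median -0.095) and 9 of 14 (median -0.098). In RYGB against its sham the counts were 8 of 14 (median -0.23), 20 of 21 (median -0.45) and 14 of 14 (median -0.63). With the B cell mean as a covariate these became 8 of 14 (median -0.06), 13 of 21 (median -0.06) and 10 of 14 (median -0.06). On the arrays low in B cell genes they were 10 of 14 (median -0.10), 15 of 21 (median -0.08) and 7 of 14 (median -0.05). None of these genes passed the limma test in any of these fits.

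Plasma cell genes were lower in 5 of 6 in VSG against Sham_VSG (median -0.33) and genes of macrophages or dendritic cells in 10 of 13 (median -0.19). Epithelial genes were split, 6 lower and 6 higher of 12, with a median of 0.01, and smooth muscle genes 3 and 3 of 6, with a median of 0.03. Mast cell and eosinophil genes were lower in 6 of 8 (median -0.08). Several lymphoid and myeloid lists were thus lower by mean together with the 6 members, none of them past the test.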

How the data were processed

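RNA from ileum of 30 rats was extracted with on-column DNA digestion, amplified with the Ovation PicoSL WTA System V2, biotin-labelled and hybridized to 1-colour Affymetrix arrays, per the labels' protocols. The authors deposited log2 signals, computed by RMA in Affymetrix Expression Console 1.3.0.187, per the submitters' processing notes. RMA evens the arrays' distributions, so a shift common to most genes is removed, and dim genes' differences can be compressed. Which arrays were normalized together, scan dates and detection calls are not given in the sources used here.

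Of 36685 transcript clusters, 14824 carried 1 gene symbol, 829 carried more and 21032 had none here. For the 14557 symbols (14415 matched RefSeq by gene ID) the brightest cluster over all arrays was kept. Genes with a mean under the 25th percentile, 2.325, were left out. Array medians lay between 3.10 and 3.25, no arrays were identical, and correlations between arrays ran from 0.952 to 0.981. Precision is set by the number of arrays, with a median half-width of 0.31 for the 95% interval of a difference. Nothing says more of the replicates than that they are biological.

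Group means were estimated from all arrays in 1 limma fit (version 3.58.1, R 4.3.3; 25 residual degrees of freedom, moderated, two-sided p adjusted by Benjamini and Hochberg over 10918 genes within each of 6 contrasts). The script was tested on simulated data. Arrays were called high in B cell or fat cell genes at the widest gap of the list mean. Plots were made in matplotlib 3.10.9 (Python 3.11.15).

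The members and the 13 gene lists were chosen with earlier results of these data known. Genes named beside the members were the 3 with the smallest p of each lymphocyte list in VSG against Sham_VSG, any listed gene past the threshold (there was none), the 10 most like the members' mean, and defining markers of cell types. Listed genes without a cluster of their own gave no value. Alternatives were quantile normalization, centring on array medians, no filter on dim genes or one at the 50th percentile, fits of just the compared groups, a replicate block, array weights, trended robust moderation, averaging of clusters per gene, B cell or epithelial list means as covariates, arrays without high B cell or fat cell genes, and leaving out each array in turn. Arrays low in both, and the lists' counts in such fits, were added after seeing the data.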

Additional observations from a re-analysis of the deposited data

Results flagged for a closer look

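Klrd1 on the array of VSG replicate 1 was at 3.262, while the other 5 VSG arrays lay between 2.142 and 2.423. The gap was 0.749 of the group's range, above Dixon's critical value of 0.625 for 6 samples. This was 1 of 30 combinations of member and group tested, and chance flags about 1 in 20. The same array had the highest fat cell list mean of all 30 (6.73) and was among the 11 high in B cell genes (6.37). Without it the log2 difference of Klrd1 in VSG against Sham_VSG was -0.43 (limma adjusted p = 0.837).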

How the results depend on the processing

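In all 6 contrasts, 0 members passed the test under every alternative run, including each left-out array. Counts at an unadjusted limma p under 0.05 moved. In VSG against Sham_VSG, 0 of 6 became 3 on arrays low in both (8.91% of genes) and 2 with the epithelial covariate (9.67%). It became 1 with array weights (9.46%) and without arrays high in fat cell genes (5.54%). In Sham_RYGB against Sham_VSG, 0 became 3 on arrays low in both (9%) and with the epithelial covariate (8.4%). The members' median kept its direction in every alternative in 4 contrasts. Over the settings other than left-out arrays it ran from -0.57 to -0.31 in VSG against Sham_VSG, from -0.41 to -0.19 in VSG against Sham_VSG_PF and from -0.71 to -0.05 in RYGB. In Sham_VSG_PF against Sham_VSG it turned to 0.10 with the filter at the 50th percentile, which removed Prf1 and Klrd1. In the RYGB effect minus the VSG effect, called the interaction here, it ran from -0.06 to 0.31 over left-out arrays. Over them it ran from -0.47 to -0.29 in VSG against Sham_VSG, -0.48 to -0.17 in VSG against Sham_VSG_PF, -0.23 to -0.07 in Sham_VSG_PF against Sham_VSG, -0.27 to -0.06 in RYGB (-0.06 without RYGB replicate 2) and -0.53 to -0.32 in Sham_RYGB against Sham_VSG. With the replicate number as a block, 0 members passed and the median in VSG against Sham_VSG stayed at -0.37. With group means taken out, 5 of 6 pairs of the same number correlated above 0.1 in VSG against Sham_VSG (median r 0.339). It was 4 of 6 in VSG against Sham_VSG_PF (0.245) and 3 in Sham_VSG_PF against Sham_VSG (-0.053). In RYGB it was 2 (-0.062), and in Sham_RYGB against Sham_VSG 4 (0.323). Pairs of unlike number were not computed, so these values cannot decide whether the numbers mark a pairing. No member's sign in the 6 contrasts rested on a passed test, and these signs turned. With the B cell mean as covariate, Cd3g became 0.004 in VSG against Sham_VSG, 0.007 in RYGB against Sham_RYGB, 0 in Sham_RYGB against Sham_VSG and 0.002 in the interaction, and Cd7 became 0.004 in Sham_VSG_PF against Sham_VSG. With the epithelial mean as covariate, Klrd1 became 0.049 in VSG against Sham_VSG_PF and Cd3g 0.069 in the interaction. With quantile normalization, Cd7 became 0.004 in Sham_VSG_PF against Sham_VSG and -0.009 in the interaction, Klrd1 -0.004 in RYGB, and Cd3g 0.044 in Sham_RYGB against Sham_VSG. The last was 0.004 after centring. Array weights took Cd3g to 0.019 in the interaction. On arrays low in B cell genes, Gzma became -0.344 in Sham_VSG_PF against Sham_VSG and -0.054 in RYGB, and Cd3g 0.145 in the interaction. Without arrays high in fat cell genes, Gzma became -0.132 in RYGB, and Prf1 -0.116 and Cd7 -0.274 in the interaction. On arrays low in both, Gzma became -0.344 in Sham_VSG_PF against Sham_VSG and -0.820 in RYGB, and in the interaction Prf1 -0.025, Gzma -0.007, Cd3g 0.046 and Cd7 -0.576. The cause was not tested.

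Over left-out arrays, values that turned ran from -0.208 to 0.128 for Klrd1 in VSG against Sham_VSG_PF, from -0.138 to 0.120 for Cd7 in Sham_VSG_PF against Sham_VSG, from -0.075 to 0.415 for Gzma and -0.069 to 0.119 for Klrd1 in RYGB, and from -0.086 to 0.042 for Cd3g in Sham_RYGB against Sham_VSG. In the interaction they ran from -0.249 to 0.329 for Prf1, -0.186 to 0.330 for Cd247, -0.113 to 0.039 for Cd3g and -0.137 to 0.238 for Cd7. The 20 genes called in RYGB became 8 on arrays low in B cell genes, 1 without arrays high in fat cell genes, 10 on arrays low in both, 11 with the epithelial covariate, 0 when only the groups compared were fitted, and 2 to 41 over left-out arrays. In Sham_VSG_PF against Sham_VSG, 0 became 1 on arrays low in B cell genes and without Sham_VSG_PF replicate 4. In the interaction, 0 became 1 on arrays low in both. With 6 rats a group and this spread between arrays, only large differences could have passed. The printed intervals are not adjusted for the number of genes, so an interval clear of 0 was not enough. In VSG against Sham_VSG_PF, Gzma and Cd3g had such intervals, with limma adjusted p of 0.823 and 0.780.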

Other observations

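The granzyme genes Gzmb, Gzmf and Gzmm, like Gzma, were not higher on the arrays high in B cell genes. The median of the 11 arrays high in B cell genes minus that of the 19 low ones was -0.11 for Gzmb, -0.10 for Gzmf and -0.02 for Gzmm, all serine proteases of cytotoxic granules, over ranges of 2.84, 3.14 and 2.19. Gzmk, a granzyme of memory T cells, was the exception at 0.63. Other effector genes went either way, with Prf1 at 0.91, Ccl5 at 0.69, Nkg7 at 0.63 and Xcl1 at -0.25. The same difference was 1.57 for Cd3d, 1.31 for Cd3e, 1.68 for Cd8b and 0.64 for Cd8a. These genes were chosen after their values were seen.

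Cd3g spread far less than the other subunits of its complex. Its 30 arrays covered 0.93 on the log2 scale, while those of Cd3d covered 3.47, Cd3e 3.08 and Cd247 2.55. Whether the probes of Cd3g report the transcript as fully as those of the other subunits was not tested, and the small differences given for Cd3g are on this narrower scale.

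Xcl1 was the 1 effector gene of 14 with a higher mean in VSG than in Sham_VSG. Against Sham_VSG_PF it was lower after VSG, by a log2 difference of -0.46 (limma adjusted p = 0.849), as the other 13 were. Its interaction between surgeries was -0.94 on the log2 scale (limma adjusted p = 0.844), with RYGB at 5.44 ± 0.57 and Sham_RYGB at 5.85 ± 0.50 (SD, n = 6), opposite in sign to VSG against its sham.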
